A study of Rattus norvegicus with 23 samples.

Results

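Of 9 T cell and plasma cell genes followed across 23 hippocampal arrays, 1, Cd4, had all aged arrays above all young ones. Macrophages of the rat make Cd4 too, and in LT rats, described below, its difference missed the threshold of limma's test (adjusted p = 0.062). The 9 genes are Cd4, Cd8a, Cd3d, Cd3e, Cd3g, Cd247, Cd5, Cd2 and Jchain. They were chosen as the probe sets whose single gene symbol in the array's annotation is one of these names, and each gene had exactly 1 probe set of the 29211 on the array. A probe set was tested if it carried 1 symbol and reached 40 in signal on 4 or more arrays. By that rule 8 of the 9 members were among the 13339 probe sets tested, and Cd3g was not.

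The arrays, Rat Gene 1.0 ST from Affymetrix, held RNA of the dorsal hippocampus of male F344 rats, 1 animal per array. LT rats (n = 6) were 21 months old and carried, for 9 months by the labels, an adeno-associated virus that expresses FKBP1b, a regulator of intracellular calcium release, injected at 12 months. ST rats (n = 6) were also 21 months old and carried the FKBP1b virus for 3 months, from an injection at 18 months. AC rats (n = 5), the aged controls of 21 months, were labelled as injected at 18 months for 3 months, with a virus that expresses eGFP. YC rats (n = 6) were 5 to 6 months old and are sham-treated by the labels, whereas the methods give them no injection. The methods give other injection ages than the labels for the 3 aged groups, with AC rats injected at the age of LT rats and ST rats later. In both viruses the CaMKII promoter drives the transgene in excitatory neurons, and the eGFP virus was given at a higher titer. AC against YC therefore joins age, surgery and vector, and ST or LT against AC joins transgene and titer, and LT against AC also injection age and time of exposure by the labels, which cannot be told apart here. By the methods, injection age and time of exposure differ instead in ST against AC, and not in LT against AC. The animals were perfused with saline before dissection. The ST and LT rats had been chosen by the study for FKBP1b expression above the group medians, which it measured by qRT-PCR. The paper states that this array lacks a probe set for FKBP1b, whereas the annotation used here gives a probe set the symbol Fkbp1b. The signal of that probe set, a different measure from the study's, was 427 on ST replicate 2, within the 364 to 458 of AC rats. It was 641 to 881 on the other ST arrays and 843 to 1217 in LT rats.

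Camk2a, a kinase of excitatory forebrain neurons, had 6330 to 7850 on all arrays. Several arrays stood apart, and AC replicate 5 was low in Wfs1 and Prox1, markers of hippocampal fields. Its RNA integrity number was 8.9, as on LT replicate 3, against 9.1 to 9.8 on the others. The highest correlation of AC replicate 5 with another array was 0.9883, against at least 0.9957 for every other array. Its array weight was 0.184, against at least 0.579 elsewhere. On AC replicate 5 the signal of Wfs1, a marker of CA1 neurons, was 580, against 2444 to 2996 on the other arrays. Prox1, a marker of dentate granule cells, had 333 there, against 632 to 950 elsewhere, and Csf1r, the growth factor receptor of microglia and macrophages, had 1665, against 714 to 1106 elsewhere. Other neuron markers on AC replicate 5 were mixed. Camk2a was lowest there, at 6330, but Slc17a7 had 5764, against 4064 to 5711 elsewhere, and Neurod6 had 2226, against 1973 to 2870. The mean of the 10 hippocampal neuron genes, each centered over the arrays on the log2 scale, was -0.41 on that array and -0.18 to 0.16 on the others. Ttr, a choroid plexus gene, had 14549 and 16411 on AC replicates 3 and 4 and 14792 and 14512 on LT replicates 2 and 5, against 116 to 5767 on the other arrays. Hbb, a hemoglobin chain of red blood cells, had 1479 and 1450 on AC replicates 3 and 4 and 151 to 258 on the others. Results that rest on AC replicate 5, or on these 4 arrays with high choroid plexus signals, are given with and without them.

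The T cell receptor reads antigen through 2 variable chains, but it signals through the invariant CD3 gamma, delta and epsilon chains and the zeta chain, encoded by Cd3g, Cd3d, Cd3e and Cd247. The coreceptors CD4 and CD8 bind MHC class II and class I molecules beside the receptor, CD5 dampens its signal, and CD2 is an adhesion receptor. In the rat, macrophages make Cd4 too, so Cd4 alone does not mark T cells. Plasma cells, the antibody-secreting end stage of B cells, make the J chain, which joins IgA and IgM into polymers. The brain parenchyma normally holds few of either cell type, and most of its resident immune cells are microglia.

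Cd4 was the member whose aged and young arrays did not overlap. How many of all tested probe sets shared this trait was not counted. It was not particular to Cd4, since Csf1r had 851 to 1665 in aged rats and 714 to 759 in YC rats. The complement factor C3 had 434 to 1967 in aged rats and 250 to 275 in YC rats. Of other macrophage and microglia genes looked at by array, Cx3cr1, Aif1 and Adgre1 shared the trait, and Itgam, Cd68, Cd163 and Mrc1 did not. The Cd4 signal was 304, 396, 330, 313 and 921 in AC rats, against 218, 206, 192, 203, 202 and 210 in YC rats. All AC arrays lay above all YC arrays, and AC replicate 5 lay far above the other AC arrays. Cd4 averaged 453 ± 264 in AC rats (SD, n = 5) and 205 ± 8.68 in YC rats (SD, n = 6). On the log2 scale Cd4 rose by 1.00 (SE 0.21, 95% interval 0.56 to 1.43) in AC rats relative to YC rats, with limma's adjusted p = 0.0067. Without AC replicate 5 the difference was 0.70 (adjusted p = 0.0035), and leaving out the 4 choroid-high arrays it was 1.23 (adjusted p = 0.0086). A one-way analysis of unlogged signals ended the call of Cd4, with adjusted p values of 0.063 in AC, 0.18 in ST and 0.067 in the mean of the aged rats against YC rats.

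The aged rats with FKBP1b had raised Cd4 signals as well. In ST rats Cd4 had 313, 560, 380, 357, 359 and 365, all above the YC range of 192 to 218. Cd4 rose by 0.90 (SE 0.20) in ST rats relative to YC rats (limma adjusted p = 0.015). In LT rats Cd4 had 305, 511, 374, 330, 307 and 330, and again every array was above every YC array. The LT difference from YC rats was 0.79 (SE 0.20, 95% interval 0.37 to 1.20), and it missed the threshold at an adjusted p of 0.062. Without AC replicate 5, which enters this fit through the shared estimate of the spread, the same LT difference had limma's adjusted p = 0.0011. Over the mean of the 3 aged groups, Cd4 rose by 0.89 (SE 0.17, adjusted p = 0.0027) relative to YC rats, and by 0.80 (adjusted p = 5.9e-05) without AC replicate 5. By mean signal the order was AC 453, ST 389, LT 360 and YC 205. It turned on AC replicate 5, without which the AC mean was 336, below ST and LT rats and above YC rats. The neighbours AC and ST (adjusted p = 0.92) and ST and LT (LT minus ST adjusted p = 0.84) were not separated beyond their spread.

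**Figure D1:**
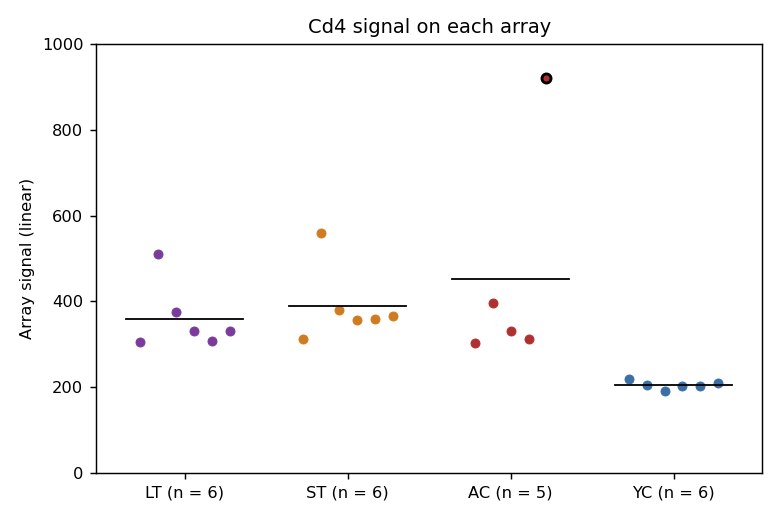
Cd4 signal (linear) on each of the 23 arrays, by group. Points are arrays, lines are group means and the black-edged point is AC replicate 5. All aged arrays, at 304 to 921, sat above the 6 YC arrays at 192 to 218.

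Of the 8 members tested, 2 were called higher in AC rats than in YC rats, Cd4 and Jchain, and 0 lower. Jchain reached the signal minimum mainly on AC arrays and on no YC array, so its call is not read against the share over all probe sets. Over all probe sets tested, 5.56% were called higher and 4.18% lower in that comparison. In ST rats 1 of 8 members was higher than in YC rats, against 2.71% called higher and 1.44% called lower over all probe sets. In LT rats 0 of 8 passed limma's test (1 had an unadjusted p under 0.05, Cd4), against 0.81% higher and 0.225% lower over all. For the mean of AC, ST and LT rats against YC rats, 1 of 8 was higher, and 5.34% of all probe sets were higher and 3.21% lower. The median log2 difference over the 8 members was 0.02 in AC rats and that over all tested probe sets was -0.006. The F test over the 4 groups called 1 of 8, Cd4 (adjusted p = 0.016), where 5.46% of all probe sets were called.

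**Figure D2:**
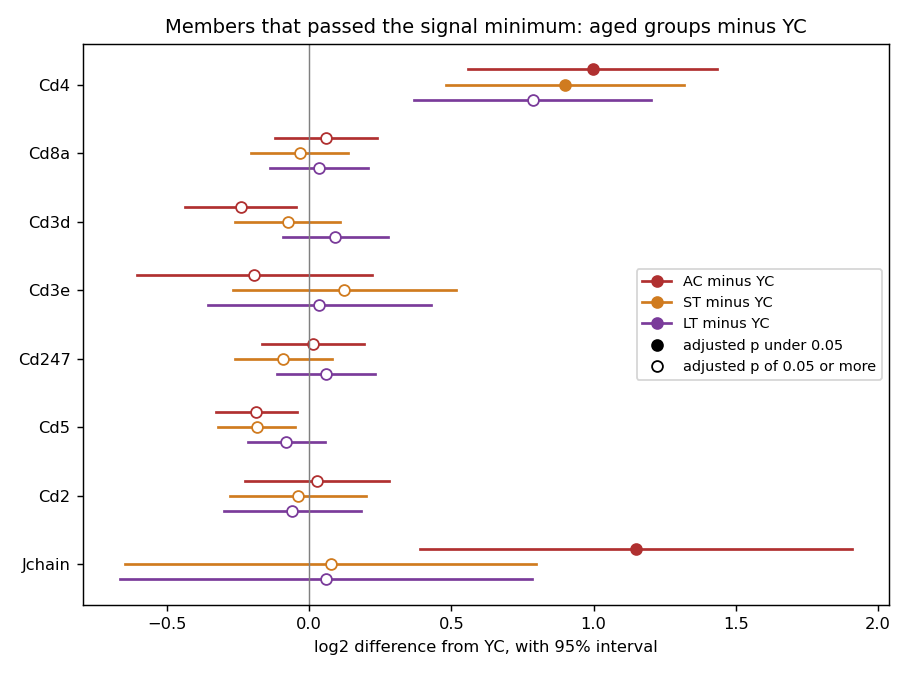
Differences of AC, ST and LT rats from YC rats on the log2 scale (x axis) for the 8 members that passed the signal minimum. Points are limma estimates with 95% intervals, filled where the adjusted p was under 0.05: Cd4 in AC and ST rats, and Jchain in AC rats.

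The CD3 chains did not follow Cd4. The genes of the 3 CD3 chains are neighbours on rat chromosome 8, and their promoters are shown because the chains work in one receptor while their signals here were not alike. The sequences are RefSeq's for build GRCr8, 250 bases before to 50 after the gene start, read along the gene's strand. The capitals mark AGGAAG or its reverse complement CTTCCT, a core bound by Ets factors.
Cd3g: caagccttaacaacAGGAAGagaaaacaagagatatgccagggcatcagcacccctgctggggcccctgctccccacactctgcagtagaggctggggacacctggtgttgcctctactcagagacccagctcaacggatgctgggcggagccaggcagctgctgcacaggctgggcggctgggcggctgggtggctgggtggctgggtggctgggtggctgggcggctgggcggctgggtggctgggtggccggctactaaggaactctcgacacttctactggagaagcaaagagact
Cd3d: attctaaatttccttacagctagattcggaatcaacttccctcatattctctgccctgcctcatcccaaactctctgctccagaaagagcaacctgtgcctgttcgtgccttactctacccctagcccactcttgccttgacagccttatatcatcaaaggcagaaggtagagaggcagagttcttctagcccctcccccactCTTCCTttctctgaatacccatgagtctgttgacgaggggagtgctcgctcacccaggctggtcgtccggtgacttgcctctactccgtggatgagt
Cd3e: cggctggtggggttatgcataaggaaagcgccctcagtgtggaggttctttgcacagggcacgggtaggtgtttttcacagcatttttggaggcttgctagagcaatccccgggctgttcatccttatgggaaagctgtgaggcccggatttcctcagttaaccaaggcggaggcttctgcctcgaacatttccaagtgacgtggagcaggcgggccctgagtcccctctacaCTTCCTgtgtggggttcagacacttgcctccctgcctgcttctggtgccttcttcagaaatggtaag
Each of the 3 windows held 1 such match. The Cd3g window lies at chr8:54183869-54184168 on the minus strand, the Cd3d window at chr8:54185269-54185568 on the plus strand and the Cd3e window at chr8:54211721-54212020 on the minus strand. Promoters of 8 members were matched by symbol, all but that of Cd4. The core was in 5 of these 8, those of Cd247 and Cd5 included with 2 matches each, and in 34.5% of all 33469 promoters of the same length. The core TGTGGT of Runx factors, on either strand, was in 1 of the 8, with 2 matches before Cd2, and in 17.3% of all promoters. No member's window held both motifs. These matches describe the sequence and are not sites.

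Cd3e, the epsilon chain, had signals of 165, 122, 139, 115 and 49 in AC rats, against 121, 114, 115, 141, 118 and 146 in YC rats. The groups overlapped, and the array with the highest Cd4 had the lowest Cd3e. The AC difference from YC rats was -0.19 (SE 0.20, 95% interval -0.61 to 0.22, limma adjusted p = 0.56), and without AC replicate 5 it was 0.10 (adjusted p = 0.61). In ST rats Cd3e had 101, 139, 140, 162, 134 and 151, and in LT rats 121, 129, 115, 150, 130 and 128. For the 3 aged groups together the interval of the fold ran from 0.793 to 1.24 times YC rats.

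Cd3d, the delta chain, had 76, 65, 60, 62 and 61 in AC rats, against 85, 85, 60, 81, 73 and 77 in YC rats. AC rats were at the low end, with overlap at YC replicate 3 (60) and AC replicate 1 (76). The AC difference from YC rats was -0.24 (SE 0.09, 95% interval -0.44 to -0.05), which missed the threshold after adjustment (limma adjusted p = 0.10). In ST rats Cd3d had 86, 76, 62, 64, 75 and 74, and in LT rats 88, 72, 93, 75, 81 and 81, so both overlapped with YC rats. The LT difference from YC rats was 0.09 (SE 0.09, adjusted p = 0.71), with a fold interval of 0.938 to 1.21.

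Cd3g, the gamma chain, stayed under the signal minimum on every array. Its signals were 14 to 21 in AC rats, 14 to 25 in ST rats, 16 to 22 in LT rats and 14 to 20 in YC rats, and 0 of 23 arrays reached 40. In a fit with no signal minimum, over 15307 probe sets, the AC difference from YC rats was -0.02 (95% interval -0.30 to 0.26, adjusted p = 0.95). Whether the members' signals stood above the array's background was not tested.

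Cd247, the zeta chain, which NK cells use as well, had 60, 53, 66, 74 and 62 in AC rats, against 59, 58, 56, 67, 62 and 72 in YC rats. Its signals were 51 to 69 in ST rats and 57 to 70 in LT rats, and the 4 groups overlapped throughout. The AC difference from YC rats was 0.01 (SE 0.09, adjusted p = 0.94), and for the aged groups together the fold interval was 0.903 to 1.10. Cd8a, the alpha chain of the CD8 coreceptor of cytotoxic T cells, had 81, 72, 77, 90 and 63 in AC rats, against 63, 80, 68, 66, 78 and 86 in YC rats. It had 64 to 76 in ST rats and 67 to 85 in LT rats. The AC difference from YC rats was 0.06 (SE 0.09, adjusted p = 0.70), and the aged groups together had a fold interval of 0.920 to 1.12.

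Cd5 and Cd2 complete the T cell surface members. Cd5 had 132, 134, 126, 137 and 144 in AC rats, against 150, 162, 145, 158, 162 and 142 in YC rats. The 2 groups overlapped only where AC replicate 5 at 144 exceeded YC replicate 6 at 142. The AC difference from YC rats was -0.19 (SE 0.07, 95% interval -0.33 to -0.04, limma adjusted p = 0.086). Cd5 had 117 to 153 in ST rats and 129 to 167 in LT rats, and for the 3 aged groups together the difference was -0.15 (SE 0.05, adjusted p = 0.086). Cd2 had 56, 47, 54, 39 and 63 in AC rats, against 59, 52, 41, 45, 47 and 60 in YC rats, with 40 to 57 in ST rats and 43 to 52 in LT rats. Its AC difference from YC rats was 0.03 (SE 0.12, adjusted p = 0.91), and the groups overlapped.

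**Figure D3:**
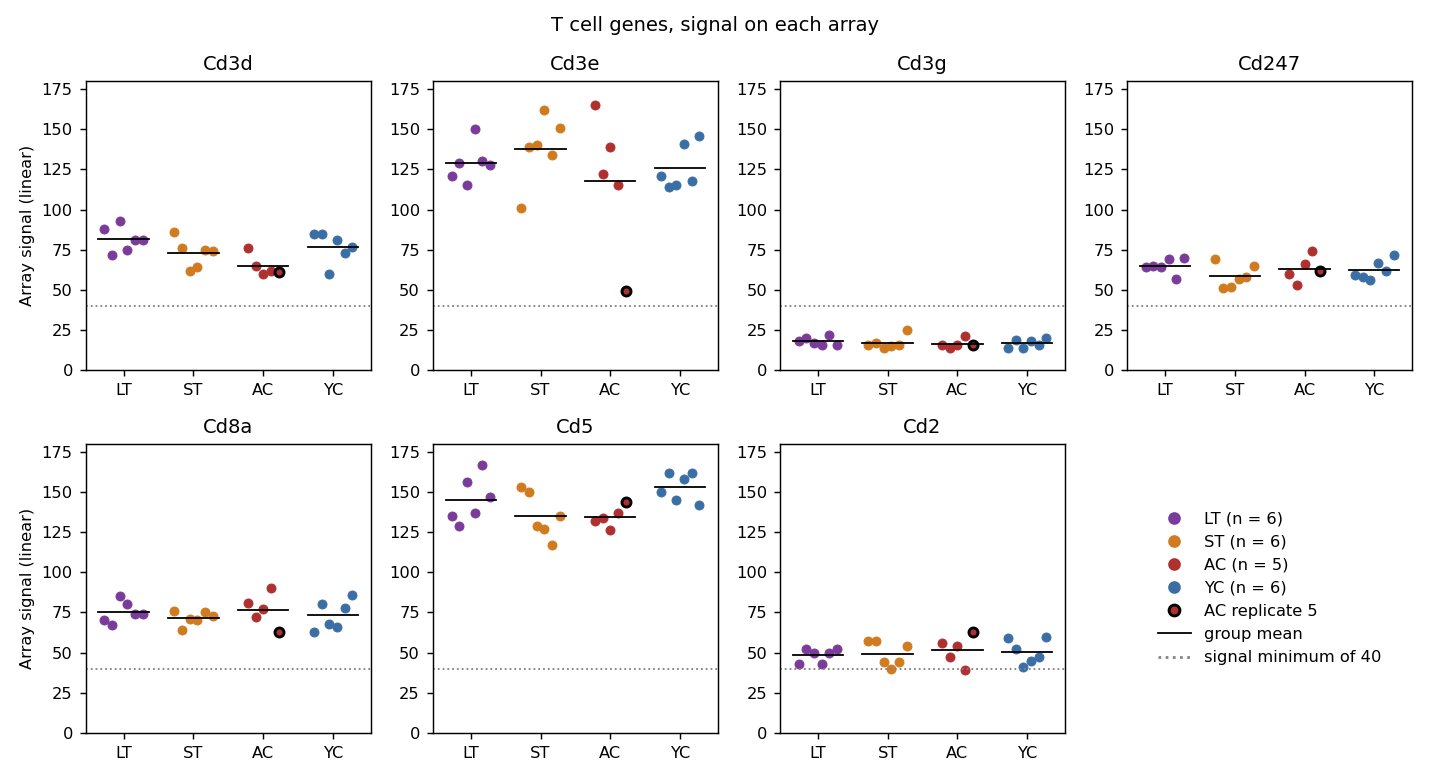
Signal (linear) of Cd3d, Cd3e, Cd3g, Cd247, Cd8a, Cd5 and Cd2 on each array, in LT, ST, AC and YC rats. Points are arrays, solid lines group means and the dotted line the signal minimum of 40. The groups overlapped for each of the 7 genes, Cd3g lay under the minimum on all arrays and Cd3e was lowest, at 49, on AC replicate 5.

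Jchain was high on 2 AC arrays. Its promoter is shown as that of the only plasma cell gene among the members; it lies at chr14:19822726-19823025 on the plus strand (RefSeq, GRCr8) and holds neither motif.
Jchain: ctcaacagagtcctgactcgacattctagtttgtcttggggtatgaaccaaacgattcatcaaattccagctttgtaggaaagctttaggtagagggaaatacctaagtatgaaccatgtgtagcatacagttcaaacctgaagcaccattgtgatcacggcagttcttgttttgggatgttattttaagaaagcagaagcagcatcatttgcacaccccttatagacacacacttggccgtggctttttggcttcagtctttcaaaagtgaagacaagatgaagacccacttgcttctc
Jchain had 34, 116, 331, 45 and 40 in AC rats, against 37, 35, 30, 35, 31 and 35 in YC rats. AC replicates 2 and 3 were high, and AC replicate 1 lay within the YC range of 30 to 37. In ST rats Jchain had 31 to 40 and in LT rats 30 to 42. Jchain reached the signal minimum on 6 arrays, 4 of them AC, so it passed into the tests only through the group in which it was high, and its p values describe a difference that the minimum had selected for. It averaged 113 ± 126 in AC rats (SD, n = 5) and 33.8 ± 2.71 in YC rats (SD, n = 6).

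The difference of Jchain rested on those 2 arrays. It was 1.15 (SE 0.37, 95% interval 0.39 to 1.91) in AC rats relative to YC rats, with limma's adjusted p = 0.049. Without AC replicate 3 it was 0.61 (adjusted p = 0.085), and without AC replicate 2 it was 0.99 (adjusted p = 0.11). Jchain lost its call in 28 of 37 alternative settings, among them 20 of the 23 that left out 1 array. Choroid plexus and blood genes were high on AC replicate 3, where Jchain had 331, but also on AC replicate 4, where it had 45. AC replicate 2, where Jchain had 116, had Ttr at 363 and Hbb at 167. Their part in the Jchain signal was not tested.

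**Figure D4:**
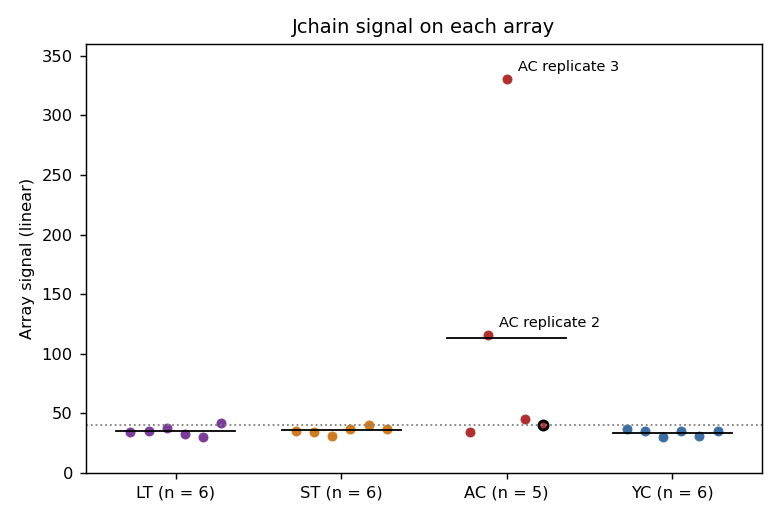
Jchain signal (linear) on each array, by group, with group means as lines and the signal minimum of 40 as a dotted line. AC replicates 2 and 3, at 116 and 331, stood above the other 21 arrays, at 30 to 45.

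The aged groups were not told apart by any member. In ST rats against AC rats 0 of 8 passed limma's test (1 had an unadjusted p under 0.05), and 0% of all probe sets did. In LT rats against AC rats 0 of 8 passed (2 had an unadjusted p under 0.05), against 0.075% of all probe sets. For the mean of ST and LT rats against AC rats 0 of 8 passed (2 had an unadjusted p under 0.05), against 0.03% of all, and for LT rats against ST rats 0 of 8 (0 had an unadjusted p under 0.05), against 0.0075% of all. A one-way analysis of the unlogged signals, with adjusted p values, also called 0 members against AC rats in the first 3 of these comparisons. The AC arrays serve both here and in the comparison with YC rats, so the 2 sets of differences are not independent. Jchain is among the members with an unadjusted p under 0.05 in each comparison with AC rats. Its lower signals there are a difference that the signal minimum had selected for.

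Cd3d had the smallest p of the members in LT rats against AC rats, with 72 to 93 in LT rats and 60 to 76 in AC rats. The difference was 0.33 (SE 0.09, 95% interval 0.14 to 0.53), and limma's adjusted p was 0.16. Jchain, which passed the signal minimum mainly through its AC arrays, differed by -1.09 (SE 0.37, adjusted p = 0.22) in LT rats against AC rats. It had 30 to 42 in LT rats and 34 to 331 in AC rats. Cd4 differed by -0.21 in LT rats (95% interval -0.65 to 0.23) and by -0.10 in ST rats (95% interval -0.54 to 0.34) relative to AC rats. Without AC replicate 5 these Cd4 differences had the opposite sign, 0.08 in LT rats and 0.20 in ST rats, and neither was called.

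Set beside other genes, Cd4 varied with macrophage genes. Its log2 signal correlated most, over the 23 arrays, with Pld4, a lysosomal exonuclease (r = 0.98), the complement factor C3 (r = 0.98), the macrophage receptor Adgre1 (r = 0.97), Csf1r (r = 0.97) and the toll-like receptor relative Cd180 (r = 0.97), of the tested probe sets. With the group means taken out, these r were 0.95 to 0.97. Without AC replicate 5 they were 0.95 to 0.97 as well. Cd4 correlated with the mean of the 26 macrophage and microglia genes at r = 0.97, and at 0.97 without AC replicate 5, where the points share arrays and tissue. With Cd3e the r of Cd4 was -0.44 over all arrays and 0.23 without AC replicate 5, and with Cd3d it was -0.29 and -0.13.

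The same 3 arrays led Cd4 and the macrophage genes. Each of the 26 genes was centered over the 23 arrays, and their mean was 0.91 on AC replicate 5, 0.36 on ST replicate 2 and 0.27 on LT replicate 2, the arrays where Cd4 was 921, 560 and 511. In the remaining aged arrays the mean ran from -0.05 to 0.10, and in YC rats from -0.35 to -0.25. All 26 of these genes passed the signal minimum. In AC rats 18 of the 26 were higher than in YC rats, against 5.56% of all probe sets, and 0 were lower, against 4.18%. The median difference was 0.49, against -0.006 over all probe sets. Without AC replicate 5, 18 were higher and the median was 0.34. Fcgr2b, an inhibitory Fc receptor, rose by 1.15 (SE 0.17, adjusted p = 5.1e-04) and Trem2, a lipid-sensing receptor of microglia, by 0.38 (SE 0.06, adjusted p = 8.6e-04). Of the 26, only Fcgr2b had a larger difference than the 1.00 of Cd4. Whether Cd4 came from macrophages was not tested, and in bulk tissue more cells of a type and more RNA per cell cannot be told apart.

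**Figure D5:**
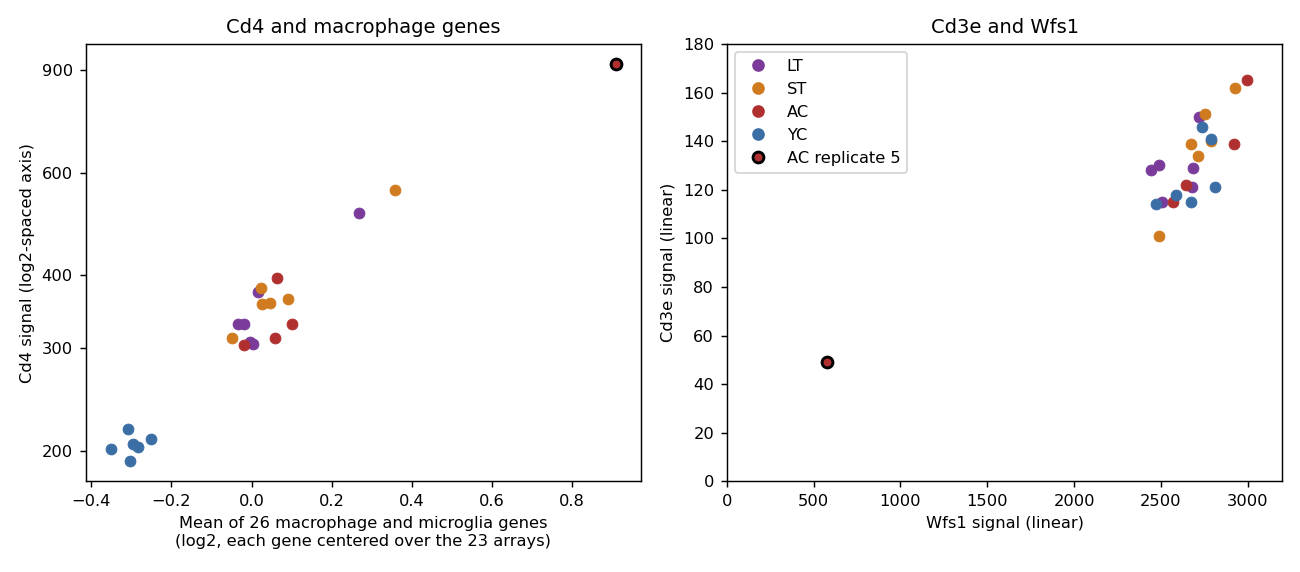
Left, Cd4 signal on a log2-spaced axis against the mean of 26 macrophage and microglia genes (log2, centered by gene) on 23 arrays; Cd4 had 921 and the mean 0.91 on AC replicate 5, with the YC arrays lowest on both. Right, Cd3e signal against Wfs1 signal, both linear; Cd3e had 49 and Wfs1 580 on AC replicate 5, against at least 101 and 2444 elsewhere.

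Besides Cd4, the search was made for Cd5, chosen by a rule on mean signal among the other T cell members, and the tested probe sets most like it over the 23 arrays were Marchf10 (r = 0.83), Cryba1 (r = 0.81), Ccdc78 (r = 0.81), Aldh1a3 (r = 0.80) and Krt34 (r = 0.80). None of these 5 belongs to the T cell lists described here. For Cd3e and Jchain the same search was made after their values had been seen. Cd3e varied most with Lingo3 (r = 0.94), Sec14l5, Med13, Tp53i11 and Wfs1 (r = 0.91), and without AC replicate 5 the r of Wfs1 with Cd3e was 0.74. Jchain varied most, of the tested probe sets, with Acer2 (r = 0.80), Ralgds (r = 0.76) and Mt1 (r = 0.76). A wider search took in all 23559 probe sets that passed the signal minimum, with or without a symbol. Of the 15 most alike there, 1 had no symbol for Cd4, 5 for Cd5 and 2 for Cd3e. For Jchain, at r of 0.81 to 0.98, all 15 carry no gene symbol in the annotation. The one most like Jchain, probe set 10892409, had 226 and 701 on AC replicates 2 and 3 and 54 to 91 on the other 21 arrays.

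The correlations among the CD3 and zeta chain genes ran from -0.05 to 0.43. Over 23 arrays the r of Cd3d with Cd3e was 0.14, of Cd3d with Cd3g 0.26, of Cd3e with Cd3g 0.12, of Cd3d with Cd247 0.20, of Cd3e with Cd247 -0.05 and of Cd3g with Cd247 0.43. The highest r between any members were those of Cd3d with Cd5 (0.50) and of Cd8a with Cd247 (0.49).

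Of 20 genes of T cell receptor signaling 17 had a probe set and 16 passed the signal minimum. The median difference of the 16 in AC rats was 0.05, against -0.006 over all probe sets. Higher than in YC rats were 3 of the 16, against 5.56% of all probe sets, and 0 were lower, against 4.18%. They were Ptprc, the pan-leukocyte phosphatase CD45 (0.66, SE 0.14, adjusted p = 0.0056), Plcg1, a phospholipase found in many cell types (0.13, adjusted p = 0.0066), and Lcp2, an adaptor of T cells and myeloid cells (0.44, adjusted p = 0.01). Ptprc had 253 on AC replicate 5 and 86 to 168 on the other arrays. The kinases that start the T cell signal did not pass: Lck had 78 to 88 in AC rats and 65 to 89 in YC rats, and Zap70 had 194 to 236 in AC rats and 197 to 243 in YC rats.

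For each list below, in AC rats with all arrays, 5.56% of all probe sets were higher and 4.18% lower, with a median of -0.006. Among 17 other T cell surface and fate genes tested, of 28 listed, 3 were higher in AC rats and 0 lower, with a median of -0.02. They were Cd48, a ligand of CD2 found on many leukocytes (0.22, SE 0.05, adjusted p = 0.011), the transcription factor Lef1 (0.15, adjusted p = 0.037) and Cd6, a relative of CD5 (0.17, adjusted p = 0.044). The call of Cd6 was lost without AC replicate 5, which left 2 of 17, and those of Cd48 and Lef1 without the choroid-high arrays, which left 1 of 17. Of 10 cytotoxic T and NK cell genes tested, 0 passed limma's test in AC rats (1 had an unadjusted p under 0.05), with a median of 0.10, and 1 passed without AC replicate 5, Nkg7. Of 16 T cell chemokine and adhesion genes 0 passed (5 had an unadjusted p under 0.05), with a median of 0.07, and without AC replicate 5 1 passed, the chemokine Cxcl16.

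Of the 12 other B cell and plasma cell genes tested, 0 passed limma's test in AC rats (3 had an unadjusted p under 0.05), with a median of -0.08. Cd79b, a chain of the B cell receptor, had 142 to 192 in AC rats and 166 to 215 in YC rats. Ms4a1, which encodes CD20, had 31 to 35 in AC rats and 23 to 34 in YC rats, under the signal minimum. The MHC class II list had 9 genes tested, and not all of these encode chains of the CD4 ligands. In AC rats 3 were higher and 1 lower, against 5.56% and 4.18% of all probe sets. Without the choroid-high arrays 2 were higher and 0 lower. Cd74, the invariant chain of class II, rose by 1.77 (SE 0.29, adjusted p = 0.0015) and RT1-Da, a class II alpha chain, by 1.46 (SE 0.35, adjusted p = 0.014) in AC rats relative to YC rats. RT1-Ba (0.72, limma adjusted p = 0.075), RT1-Bb (-0.01) and RT1-Db1 (0.10), also class II chains, were not called. The calls of RT1-Da and of Ciita, the lower one, were lost without the choroid-high arrays. The neuron list had 0 of 10 called in AC rats (0 had an unadjusted p under 0.05). The choroid plexus list had 0 of 11 called (1 had an unadjusted p under 0.05), with a median of 1.40, and -0.14 once its 4 high arrays were left out. Of 3 blood genes tested, 1 was lower in AC rats, the neutrophil peroxidase Mpo (a difference of -0.20, SE 0.06, adjusted p = 0.036). The call of Mpo was lost without AC replicate 5, and Hbb was then called higher.

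The lists were also counted for the mean of the 3 aged groups against YC rats, where 5.34% of all probe sets were higher and 3.21% lower. Shares over all probe sets are not given for the list counts with arrays left out. Higher were 16 of 26 macrophage and microglia genes, 4 of 9 MHC class II genes (1 was lower), 2 of 16 genes of T cell receptor signaling, Ptprc and Lcp2, and 2 of 17 other T cell surface and fate genes, Cd48 and Cd6. Of the cytotoxic, B cell and plasma cell, and chemokine and adhesion lists, 0 genes passed limma's test in that comparison, and 0, 2 and 4 genes of them, in this order, had an unadjusted p under 0.05. Sdc1, a plasma cell surface proteoglycan, was called lower and the chemokine Cxcl12 higher without AC replicate 5. Without that array 20 macrophage and microglia genes, 4 MHC class II genes and 3 genes of T cell receptor signaling were higher, Fyb1 being the third, and without the choroid-high arrays 13, 3 and 2 were.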

How the data were processed

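RNA of the dorsal hippocampus was hybridized to Affymetrix arrays. The authors deposited 1 intensity for each probe set and array, made with Partek and the Robust Multiarray Average (RMA), whose versions the labels and methods do not state. They are unlogged and rounded, with 758 blanks. Of these, 265 lay in ST, 255 in LT, 0 in AC and 238 in YC, and 0 in a member. For its own tests the study discarded outliers, at a cutoff of 2 SD. Whether the blanks are such outliers is not stated. With the 5 AC arrays used here a value lies at most 1.79 SD out, so this cutoff removes none there. Cd68 was blank on ST replicate 2 and LT replicate 2, and Cd74 on ST replicate 2. The Cd68 signal of 163 on AC replicate 5 was kept. How the blanks affect the group differences of list genes was not tested. The intensities were used as log2 values, with no further normalization. Median signals were 134 to 141 on all arrays, and precision is limited by how many arrays there are.

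Of the probe sets 15307 carry 1 symbol, 323 several and 13581 none, by the platform's annotation, which can be old. Tests used limma 3.58.1 in R 4.3.3, with 1 mean for each of the 4 groups and all 23 arrays, and Benjamini-Hochberg adjustment over 13339 probe sets, called under 0.05. The script was tested on simulated data. A gene with several probe sets was represented by the brightest. Every member is described. For Cd4 and the brightest T cell member, the 5 probe sets with the highest Pearson r are named, and in each of 10 gene lists up to 2 called genes with the smallest p in AC or the mean aged group against YC; Lck, Zap70, Cd79b, Ms4a1, Nkg7, Cxcl16, Cxcl12, Sdc1, Ciita and Fyb1 were named after their values were seen. Members and lists were chosen with earlier results of these data known. Arrays are separate animals by the study's methods. Alternatives were leaving out arrays, covariates, a replicate block, other tests, filters and normalizations.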

Additional observations from a re-analysis of the deposited data

Results flagged for a closer look

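In 6 of the 36 combinations of a member and a group, 1 array lay far from the rest of its group, by the ratio of its gap to the group's range (above 0.710 for 5 arrays and 0.625 for 6). Chance gives about 1 in 20 such groups. Cd4 had 921 on AC replicate 5, where the other AC arrays had 304 to 396. Cd4 also had 560 on ST replicate 2, against 313 to 380 on the other ST arrays, and 511 on LT replicate 2, against 305 to 374 on the other LT arrays. Jchain had 331 on AC replicate 3, against 34 to 116 on the other AC arrays. Cd3g had 21 on AC replicate 4 (others 14 to 16) and 25 on ST replicate 6 (others 14 to 17), both under the signal minimum.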

How the results depend on the processing

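Each result was recomputed under 15 other settings and with each of the 23 arrays left out. The count of members called in AC against YC rats was 2, and 1 (Cd4) without the choroid-high arrays (AC replicates 3 and 4, LT replicates 2 and 5), with the choroid plexus list as a covariate, with the replicate block, with the compared groups alone, with no signal minimum, with a minimum of 100, over all probe sets and with a variance trend and robust moderation; it was 0 in the one-way analysis of unlogged signal (adjusted p of Cd4 0.063). Leaving out 1 array gave 1 to 3. For the mean of the aged groups against YC rats the count was 1, and 2 (Cd4 and Cd5) with the RNA integrity number as a covariate and with array weights, 0 in the one-way analysis (adjusted p of Cd4 0.067), and 1 to 2 with 1 array left out; Cd5 then had an adjusted p as low as 0.032. Leaving out 1 array gave 0 to 1 calls for ST and LT averaged against AC rats, and 0 in ST and LT against AC rats. The 1 call was Jchain without AC replicate 1, a difference that the signal minimum had selected for. Cd3d in AC against YC rats was called without YC replicate 3 (-0.31, adjusted p = 0.034) and without AC replicate 1 (-0.30, adjusted p = 0.04). Cd4 in LT against YC rats was called in 4 of 38 settings, with adjusted p values of 0.0011 to 0.41, and in ST against YC rats in 37 of 38. The setting that drops values over 2 SD from the group mean cannot drop any in AC, since 5 arrays allow at most 1.79 SD. Replicate numbers are shared by the groups, but nothing in the labels pairs the animals: over 33 same-numbered pairs the deviations from group means correlated at -0.38 to 0.20, over 0.1 in 7. The block lost the call of Jchain (adjusted p = 0.06).

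Differences changed sign in 67 of 1495 recomputed values, with 0 of these called in either fit, sizes of at most 0.273 as reported and at most 0.195 after the change. Leaving out AC replicate 5 turned Cd4 and Cd3e in LT and in ST and LT averaged against AC rats, Cd4 and Cd2 in ST against AC rats, Cd3e and Cd2 in AC against YC rats, and Cd3e in the mean of the aged groups against YC rats. In AC against YC rats, leaving out the choroid-high arrays gave Cd8a -0.028 and Cd247 -0.093, the choroid covariate gave Cd247 -0.022, and array weights gave Cd3e 0.008 and Cd2 -0.006; leaving out 1 array gave Cd2 -0.048 to 0.125, Cd247 -0.048 to 0.072, Cd3e -0.341 to 0.097 and Cd8a -0.002 to 0.127. In ST against AC rats, Cd4 was 0.042 with the RNA integrity number and 0.15 with array weights, Cd247 0.003 and Cd5 -0.021 without the choroid-high arrays, and Cd5 -0.005 with the choroid covariate; with 1 array left out Cd4 was -0.208 to 0.195, Cd5 -0.036 to 0.041 and Cd2 -0.163 to 0.01. In LT against AC rats, Cd8a was 0.105 without the choroid-high arrays; with 1 array left out Cd4 was -0.318 to 0.082, Cd8a -0.093 to 0.036, Cd3e -0.061 to 0.377 and Cd247 -0.013 to 0.107. With ST and LT averaged against AC rats, Cd4 was 0.067 with array weights, and Cd8a 0.05 and Cd247 0.1 without the choroid-high arrays; with 1 array left out Cd4 was -0.262 to 0.138, Cd8a -0.126 to 0.002, Cd3e -0.017 to 0.421 and Cd247 -0.088 to 0.032. In the mean of the aged groups against YC rats, Cd3e was 0.054 with the RNA integrity number, 0.027 in the one-way analysis, 0.011 with equal medians, 0.01 with quantile normalization and 0.069 with array weights; Cd247 was 0.004 with the replicate block, 0.015 with equal medians and 0.047 with quantile normalization, and Cd2 0.027 with quantile normalization. With 1 array left out Cd3e was -0.06 to 0.086, Cd247 -0.036 to 0.036, Cd8a -0.023 to 0.067 and Cd2 -0.082 to 0.028. The cause of these changes was not tested.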
